A study of Mus musculus with 20 samples.

Results

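Bile acid synthesis and transport in mouse liver was examined through 10 genes: *Cyp7a1*, *Cyp8b1*, *Cyp27a1*, *Cyp7b1* and *Cyp39a1*, which hydroxylate cholesterol or its oxidation products, *Acox2*, *Slc27a5* and *Baat*, which finish and conjugate the bile acid, and *Slc10a1* and *Abcb11*, which carry bile acids into and out of the hepatocyte. The genes were picked by symbol for what they are known to do, with earlier results of these data known. All 10 were found among the 36128 genes with FPKM values (fragments per length of exon and per depth of library) and in both tables of read counts, which list 25690 genes for B6 and 24722 for CAST. Livers came from 20 mice of 8 weeks of age with no treatment named: 5 males and 5 females of the classical inbred strain C57BL/6J (B6) and 5 males and 5 females of CAST/EiJ (CAST), an inbred strain derived from wild mice. RNA of the whole liver, not of sorted hepatocytes, was polyA-selected and sequenced. Groups were taken from the library titles. For the 5 females of B6 and the 5 males of CAST the separate strain entry disagrees with the title, and it was not used.

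Bile acids are made from cholesterol in hepatocytes. In the classical pathway *Cyp7a1*, the rate-limiting enzyme, hydroxylates cholesterol itself, and *Cyp8b1* adds the hydroxyl group that directs the product towards cholic acid. In the alternative pathway *Cyp27a1*, a mitochondrial enzyme, first oxidizes the side chain, and *Cyp7b1* then hydroxylates the oxysterol. The finished acid is joined to taurine or glycine, pumped into bile, reabsorbed in the gut and taken up again from portal blood. Bile acids that return to the liver act on the nuclear receptor encoded by *Nr1h4* (FXR), which lowers *Cyp7a1* expression.

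Reads counted on genes ranged from 7969482 to 35328573 per library, with a median of 16647476 for the males and 13794950 for the females of B6, and 10256940 and 22974697 for those of CAST. No 2 livers of a group held the same counts within sampling noise, with 8.08 the lowest chi-square per degree of freedom. Summed FPKM of 7 hepatocyte markers, among them *Alb* and *Ttr*, lay between 17353 and 31453 in every liver, against at most 24.9 for 8 cholangiocyte markers, so the tissue label holds. The Y-linked genes *Ddx3y*, *Eif2s3y*, *Kdm5d* and *Uty* are listed at 0 in all 20 livers, so they gave no check of the sex labels. Reads of each strain were mapped to that strain's own genome, and strain and mapping cannot be told apart. Of 2240 protein-coding genes with a mean of at least 10 FPKM in B6, 12 are listed at 0 in every CAST liver, and 31 of 2338 such genes of CAST are listed at 0 in every B6 liver. None of the 10 genes is among them, and their ratio of counts to FPKM, scaled by library total, was 0.996 to 1.00 times as large in CAST as in B6.

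In mm9, *Cyp7a1* lies on chromosome 4 from 6192759 to 6202780 on the minus strand, with 6 exons in its longest annotated transcript. *Cyp7b1* is on chromosome 3 from 17971950 to 18143338, also on the minus strand with 6 exons. *Cyp8b1* is an intronless gene on chromosome 9 from 121823474 to 121825423 on the minus strand, and its 1 exon holds 1950 bases. *Cyp39a1* spans chromosome 17 from 43804374 to 43888380 on the plus strand with 12 exons. *Acox2* has 15 exons on chromosome 14 from 9058025 to 9091867 on the minus strand. Exons of *Abcb11*, on chromosome 2 from 69076339 to 69180671, overlap those of the antisense genes *Gm13613* and *Gm13614*, and whether the counting used strand is not given in the sources used here. No other member has an exon that overlaps one of another annotated gene.

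Promoter sequences, 250 bases before to 50 after the start site, were present in the RefSeq table (GRCm38.p6) for 5 of the 10 genes. The 3 shown belong to genes of different behaviour in the values below: *Cyp8b1* is higher in B6 males than in the other groups, *Acox2* is higher in CAST, and *Slc10a1* was called in no comparison. They are printed 5′ to 3′ along the gene, with the matches of 4 searched motifs in capitals. *Cyp8b1* is at chr9:121916256-121916555, minus strand; *Acox2* (the downstream one of 2 start sites) at chr14:8258790-8259089, minus strand; *Slc10a1* (the upstream one of 2) at chr12:80968656-80968955, minus strand.
Cyp8b1: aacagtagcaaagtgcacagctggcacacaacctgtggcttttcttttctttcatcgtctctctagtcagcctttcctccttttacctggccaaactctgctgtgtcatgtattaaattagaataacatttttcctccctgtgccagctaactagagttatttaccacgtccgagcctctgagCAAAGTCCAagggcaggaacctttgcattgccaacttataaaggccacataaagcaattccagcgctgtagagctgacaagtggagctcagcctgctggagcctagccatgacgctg
Acox2: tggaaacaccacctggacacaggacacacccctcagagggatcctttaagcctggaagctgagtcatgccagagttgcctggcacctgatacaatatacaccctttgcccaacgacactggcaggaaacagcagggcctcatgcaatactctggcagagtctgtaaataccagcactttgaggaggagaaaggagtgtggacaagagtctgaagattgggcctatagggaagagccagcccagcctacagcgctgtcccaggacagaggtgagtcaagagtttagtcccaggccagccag
Slc10a1: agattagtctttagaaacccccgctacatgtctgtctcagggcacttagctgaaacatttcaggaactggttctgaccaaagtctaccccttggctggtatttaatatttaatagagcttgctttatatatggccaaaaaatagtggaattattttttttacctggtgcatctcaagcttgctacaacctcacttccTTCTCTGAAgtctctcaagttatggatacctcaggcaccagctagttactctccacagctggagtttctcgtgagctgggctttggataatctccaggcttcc
The motifs were searched on both strands in the promoters of all members listed. CAAAGTCCA, of the type bound by Hnf4a, occurs in *Cyp8b1* with its first base at position -67 from the start site, and in 0.475% of the 32851 promoters of the table. TTCNNNGAA, of the type bound by STAT5, occurs in *Slc10a1* at position -53 as TTCTCTGAA and in 8.3% of all promoters. AAGGTCA, of the type bound by Nr5a2, is in 4.72% of promoters, and the FXR-type inverted repeat, which shares the letters AGGTCA with it, in 0.00913%. Neither has a match in a member's window, and the *Acox2* windows hold none of the 4 motifs. A match describes letters and not binding.

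All 10 genes were well expressed. By mean FPKM over 20 livers, *Slc27a5* (163.7), *Slc10a1* (145), *Cyp27a1* (104) and *Cyp7b1* (101) were in the top 1.37% of 20570 protein-coding genes, followed by *Abcb11* (90.6), *Baat* (72.3), *Cyp8b1* (56.0), *Acox2* (43.8), *Cyp7a1* (23.6) and *Cyp39a1* (7.88). The order differed between groups, on a scale that corrects for exon length. *Slc27a5* led in both B6 sexes at 167 FPKM in males, where its range overlapped that of *Slc10a1*, and 204 in females. *Cyp7b1* led in CAST males at 212 FPKM and was ninth of 10 in B6 females at 7.83, where its range overlapped those of its neighbours *Cyp7a1* and *Cyp39a1*. *Slc10a1* led in CAST females at 170 FPKM, not apart from *Slc27a5* at 158. *Cyp39a1* was last in every group. Between the lowest and highest of 20 livers the level varied 67.7-fold for *Cyp7b1*, 12.7-fold for *Cyp7a1* and about 7.09-fold for *Cyp8b1* and 7.10-fold for *Cyp39a1*, but 1.52-fold for *Baat* and 1.68-fold for *Abcb11*.

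**Figure D1:**
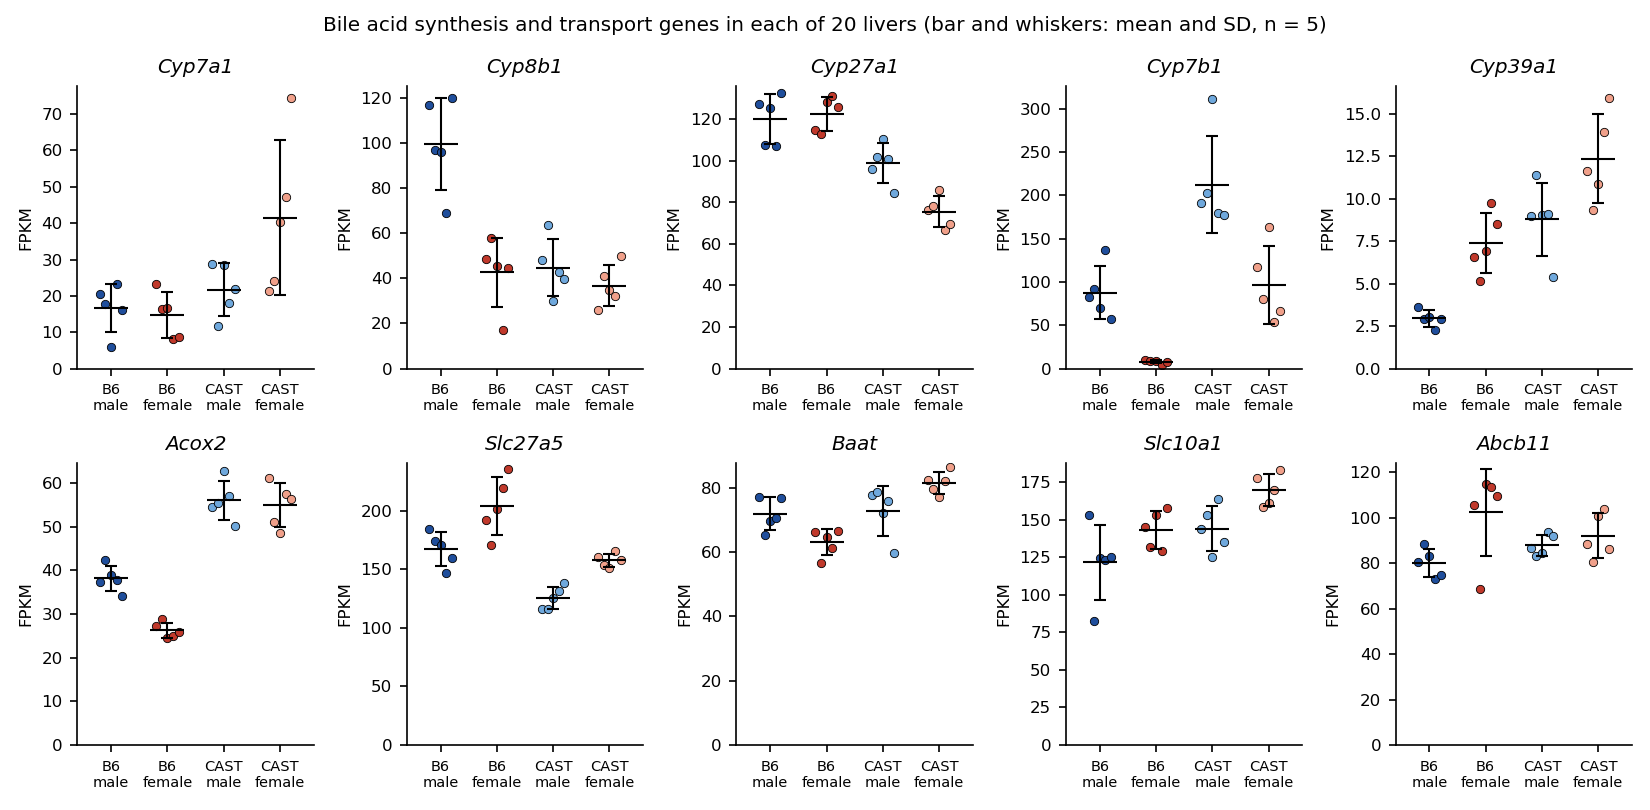
FPKM (y axis, linear, from 0) of the 10 genes in each of 20 livers, by strain and sex. Each point is 1 liver, and the bar and whiskers are the mean and SD of 5. *Cyp7b1* in B6 females (4.59 to 9.38 FPKM) lies below every other liver, while *Baat* stays between 56.7 and 86.4 in all.

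The first comparison asked which of these genes differ between the sexes within a strain. A call required more than a 2-fold difference and, in edgeR's quasi-likelihood test, an adjusted p (Benjamini-Hochberg, over all genes) below 0.05. In B6 liver, 3 of 10 genes were called: *Cyp7b1* and *Cyp8b1* were higher in males and *Cyp39a1* was higher in females, against 2.4% of all genes tested. With *Acox2*, higher in males by less than 2-fold, 4 of 10 passed the adjusted p alone, against 7.55% of all genes and 21.3% of well counted ones (mean count 1000 or more). The same 4 had FPKM ranges that did not overlap between the sexes, against 7.51% of all genes. In CAST liver, 1 of 10 was called, *Cyp7b1*, higher in males, against 2.05% of all genes. In CAST 5 of 10 passed the adjusted p alone, against 5.65% of all genes and 15.3% of well counted ones: *Cyp7b1* was higher in males, and *Cyp7a1*, *Cyp39a1*, *Slc10a1* and *Slc27a5* were higher in females by at most about 2-fold. The ranges of the sexes did not overlap for *Cyp7b1* and *Slc27a5*, 2 of 10, against 6.43% of all genes.

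The second comparison asked how the strains differ within a sex, tested in 1 fit of all 20 livers. In males, 3 of 10 genes were called, against 23.8% of all genes: *Cyp7b1* and *Cyp39a1* were lower and *Cyp8b1* was higher in B6. In females, 3 of 10 were called, against 24.4% of all genes: *Cyp7a1*, *Cyp7b1* and *Acox2* were lower in B6. At the adjusted p alone 6 of 10 passed in males and 8 of 10 in females, against 38.4% and 39.9% of all genes and 53.5% and 58% of well counted ones. The ranges of the strains did not overlap for 5 of 10 in males and 6 of 10 in females, against 28.2% of all genes in each sex. The third comparison asked whether the sex difference itself differs between strains (the interaction). *Cyp7b1*, *Acox2* and *Baat* passed, 3 of 10 against 2.28% of all genes and 8.55% of well counted ones. In whole liver RNA, fewer cells of a type and less RNA per cell cannot be told apart.

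**Figure D2:**
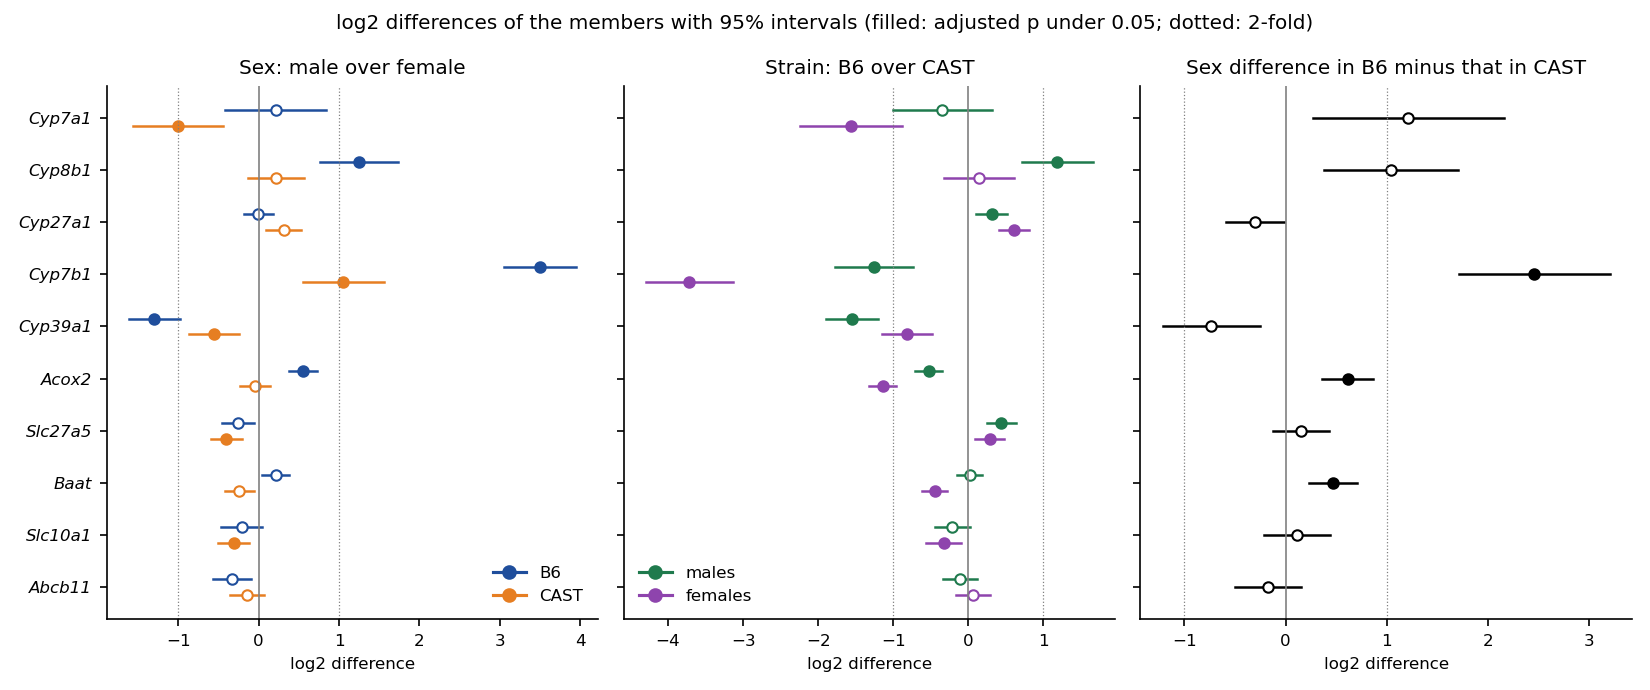
log2 differences of the 10 genes (points) with 95% intervals (lines): male over female in each strain, B6 over CAST in each sex, and the sex difference in B6 minus that in CAST. Filled points have an adjusted p under 0.05, and dotted lines mark 2-fold. *Cyp7b1* shows the largest differences, 3.50 for sex in B6 and -3.72 for strain in females.

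Of the classical pathway, *Cyp7a1* did not differ detectably between the sexes in B6 and was highest in CAST females. Its FPKM was 20.5, 17.8, 5.84, 23.2 and 16.1 in the 5 B6 males and 23.3, 16.3, 16.7, 8.13 and 8.69 in the 5 B6 females. The B6 groups overlap almost fully, and each holds livers apart by over 2-fold. It was 28.8, 11.6, 28.5, 17.9 and 21.8 in CAST males and 21.4, 24.1, 40.4, 47.2 and 74.3 in CAST females. In CAST 3 of 5 females lie above every male, and the other females lie within the male range. The B6 sex difference was 0.21 ± 0.30 (log2 ± SE, male over female), with a 95% interval of -0.41 to 0.84 and an adjusted p of 0.745. In CAST it was -0.999 ± 0.27, just under 2-fold, with an adjusted p of 0.0317. That adjusted p rose to 0.0690 without CAST female 4, 0.0906 without CAST female 5, 0.0598 without CAST male 2 and 0.0778 without CAST male 4, and to 0.0670 in DESeq2 and 0.0728 in the fit of all 20 livers. On log2(FPKM + 0.1) limma gave -0.86 and an adjusted p of 0.279. The difference was over 2-fold with an adjusted p under 0.05 without CAST females 1 (-1.15) or 2 (-1.14) or without CAST males 1 (-1.10), 3 (-1.12) or 5 (-1.02). Between strains, *Cyp7a1* was 2.95-fold lower in B6 than CAST females (log2 -1.56 ± 0.33, adjusted p = 0.000329), while the difference in males was -0.34 ± 0.32 (adjusted p = 0.416). The interaction of 1.21 ± 0.46 had an adjusted p of 0.193, so the sex differences of *Cyp7a1* in B6 and CAST are not shown to differ. Depth moved with these values in CAST, where the female with the least *Cyp7a1* had the largest library (35328573 reads) and the one with the most had the smallest (11123291), and the male with the least had the largest of its group (30617667). In B6 it did not order the livers in this way: the male with the least *Cyp7a1* had the smallest library of its group (15919560), the deepest male (28209823) lay at the median of 17.8 FPKM, and the female with the most had the largest library (14118064). The part of depth in the result was not tested.

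*Cyp8b1*, which sets the share of cholic acid, stood out in B6 males. Its FPKM was 117, 97.0, 96.0, 69.0 and 120 in B6 males and 48.4, 58.0, 45.4, 16.9 and 44.6 in B6 females, with no overlap. In CAST males it was 48.2, 63.7, 29.8, 42.8 and 39.5 and in CAST females 26.1, 41.0, 35.0, 32.3 and 49.7. Every B6 male is thus above all 15 other livers, whose ranges overlap. *Cyp8b1* was 2.37-fold higher in males in B6 (log2 1.25 ± 0.23, adjusted p = 0.00225) and 2.28-fold higher in B6 than CAST males (1.19 ± 0.23, adjusted p = 0.000124). The sex difference in CAST was 0.21 ± 0.17 (95% interval -0.13 to 0.56, adjusted p = 0.520), and the strain difference in females 0.15 ± 0.23 (-0.32 to 0.61, adjusted p = 0.646). The interaction of 1.04 ± 0.32 missed the threshold (adjusted p = 0.0927), but passed without B6 female 2 (0.0426) or CAST male 2 (0.0423). The B6 sex difference remained 1.04 without B6 female 4, the liver with the least *Cyp8b1*. Limma on log2(FPKM + 0.01) gave it an adjusted p of 0.0692.

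Of the alternative pathway, *Cyp7b1* showed the widest differences. Its FPKM was 83.1, 92.0, 69.8, 136 and 57.0 in B6 males and 9.38, 8.72, 8.88, 4.59 and 7.58 in B6 females. In CAST males it was 192, 203, 311, 179 and 177, and in CAST females 118, 80.1, 163.9, 53.8 and 66.9. The sexes do not overlap in either strain, nor do the strains in either sex, and B6 males and CAST females overlap each other. *Cyp7b1* was 11.3-fold higher in males in B6 (log2 3.50 ± 0.21, adjusted p = 3.50e-09) and 2.07-fold higher in males in CAST (1.05 ± 0.24, adjusted p = 0.0106). It was 2.39-fold lower in B6 than CAST males (-1.26 ± 0.25, adjusted p = 0.000206) and 13.1-fold lower in B6 than CAST females (-3.72 ± 0.28, adjusted p = 7.33e-12). The sex difference was larger in B6 than in CAST by 2.46 ± 0.36 (adjusted p = 0.000152). CAST sits near the 2-fold line: without CAST male 3, the liver at 311 FPKM, the log2 difference was 0.87, and without CAST female 2, 4 or 5 it was 0.99, 0.90 and 0.93. In CAST the adjusted p of *Cyp7b1* was at most 0.0291 with any 1 liver left out, and 0.0517 in limma on log2(FPKM + 0.1).

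*Cyp27a1*, which starts the alternative pathway and also oxidizes side chains in the classical one, was higher in B6 than CAST in both sexes. It did not pass between the sexes, though in CAST it did under several alternatives. B6 males averaged 120 ± 11.9 FPKM (SD, n = 5) and B6 females 122 ± 8.29, while CAST males averaged 98.7 ± 9.61 and CAST females 75.4 ± 7.53. Every B6 female (113 to 131) lies above every CAST female (66.7 to 85.9). B6 was higher in females by 0.61 ± 0.10 (log2, adjusted p = 9.54e-06) and in males by 0.31 ± 0.10 (adjusted p = 0.0129, but 0.0708 without B6 male 5 and 0.0562 without CAST male 5). The sex difference in B6 was -0.0040 with a 95% interval of -0.18 to 0.18. In CAST males were 0.31 ± 0.10 higher with an adjusted p of 0.0870, which fell to 0.0319 without CAST female 3, 0.0489 without CAST male 5 and 0.00958 in DESeq2.

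*Cyp39a1*, an oxysterol hydroxylase that acts on a brain-derived oxysterol, ran against *Cyp7b1* in sex. Its FPKM was 3.6, 2.93, 3.02, 2.25 and 2.94 in B6 males and 6.59, 5.14, 6.94, 9.76 and 8.53 in B6 females. It was 9.01, 11.4, 9.05, 9.12 and 5.41 in CAST males and 11.7, 9.34, 10.9, 13.9 and 15.96 in CAST females. B6 males lie below all other livers. *Cyp39a1* was 2.46-fold lower in males in B6 (log2 -1.30 ± 0.15, adjusted p = 1.55e-05) and 2.93-fold lower in B6 than CAST males (-1.55 ± 0.17, adjusted p = 1.22e-08). In females B6 was lower by -0.82 ± 0.16 (adjusted p = 0.000179). The CAST sex difference of -0.56 ± 0.15 had an adjusted p of 0.0318, which rose to 0.0844 without CAST female 4, 0.0771 without CAST female 5, and 0.0655, 0.0544 and 0.0523 without CAST male 1, 4 or 5. With library size alone as the scaling it was 0.0912. The interaction of -0.74 ± 0.23 had an adjusted p of 0.101, which was 0.0440 without B6 female 2, 0.0338 without CAST male 5 and 0.0380 in DESeq2.

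Among the finishing enzymes, *Acox2*, the peroxisomal oxidase that shortens the side chain, was lowest in B6 females. Its FPKM was 37.4, 42.3, 38.9, 37.9 and 34.2 in B6 males and 27.4, 28.8, 24.6, 24.9 and 26 in B6 females. In CAST it was 54.4, 55.5, 62.8, 57.0 and 50.2 in males and 61.1, 51.1, 48.5, 57.6 and 56.3 in females. The B6 sexes are apart, the CAST sexes overlap, and every CAST liver is above every B6 liver. *Acox2* was 1.47-fold higher in males in B6 (log2 0.55 ± 0.08, adjusted p = 0.000248), while the CAST difference was -0.05 ± 0.09 (95% interval -0.23 to 0.14). It was 2.20-fold lower in B6 than CAST females (-1.14 ± 0.09, adjusted p = 1.29e-11) and 1.44-fold lower in B6 than CAST males (-0.53 ± 0.09, adjusted p = 1.56e-05). The interaction was 0.61 ± 0.12 (adjusted p = 0.00595, and 0.0653 in limma on log2(FPKM + 0.01)).

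*Slc27a5*, which activates bile acids with coenzyme A, had the highest mean of the members in B6, though not apart from *Slc10a1* in B6 males. Males and females of B6 averaged 167 ± 14.3 and 204 ± 24.9 FPKM (SD, n = 5), and those of CAST 126 ± 9.64 and 158 ± 5.65. CAST males (116 to 138) lie below all CAST females (151 to 165). Males were lower in CAST by -0.40 ± 0.09 (adjusted p = 0.0107). In B6 the difference was -0.26 ± 0.09 with an adjusted p of 0.110, which was 0.0424 without B6 female 2 and 0.0393 in DESeq2. B6 was higher in males by 0.44 ± 0.09 (adjusted p = 0.000417) and in females by 0.29 ± 0.09 (adjusted p = 0.0167, but 0.0698 without B6 female 5).

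*Baat*, which joins the activated acid to taurine or glycine, varied least. Its mean was 71.9 ± 5.07 FPKM (SD, n = 5) for males and 63.1 ± 4.11 for females of B6, and 72.8 ± 7.73 and 81.5 ± 3.49 for those of CAST. B6 females (56.7 to 66.6) lie below all CAST females (77.0 to 86.4), a difference of -0.45 ± 0.08 (log2, adjusted p = 5.73e-05). The sex difference was 0.21 ± 0.08 in B6 (adjusted p = 0.119) and -0.24 ± 0.09 in CAST (adjusted p = 0.125). These opposite differences were apart by 0.46 ± 0.12 in the interaction (adjusted p = 0.0284). That adjusted p was 0.0594 without B6 female 3, 0.0525 without B6 female 4, 0.0647 without B6 male 1, 0.0571 without B6 male 5, 0.0571 without CAST female 1 and 0.141 with library size alone as the scaling.

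Neither transporter was called in any comparison. *Slc10a1* (NTCP), the sodium-dependent carrier that takes bile acids up from blood, was 153, 82.6, 124, 123 and 125 FPKM in B6 males and 145, 132, 153, 129 and 158 in B6 females. It was 144, 153, 125, 163.7 and 135 in CAST males and 178, 158, 161, 170 and 183 in CAST females. Of the groups compared, only B6 and CAST females do not overlap, and B6 male 2 lies apart at the low end. *Slc10a1* was lower in B6 than CAST females by -0.33 ± 0.11 (adjusted p = 0.0224), which was 0.0623 without B6 female 4, 0.0504 without CAST female 1 and 0.107 with library size alone. In males B6 differed by -0.21 ± 0.11 (adjusted p = 0.142, and 0.0235 without B6 male 1). The sex difference in CAST was -0.31 ± 0.09 with an adjusted p of 0.0495 that rose above 0.05 when any 1 of 9 of the 10 livers was left out, up to 0.143. In B6 it was -0.21 ± 0.12 (adjusted p = 0.349).

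*Abcb11* (BSEP), the pump that exports bile acids into bile, passed in no comparison. It was 80.5, 88.3, 83.3, 73.0 and 75.0 FPKM in B6 males and 106, 68.6, 115, 114 and 109 in B6 females. CAST males had 86.6, 83.2, 84.3, 93.9 and 91.8 FPKM, and CAST females 88.6, 80.6, 101, 104 and 86.3. B6 female 2, at 68.6, stands below every other liver, and the other 4 B6 females stand above every B6 male. The B6 sex difference of -0.33 ± 0.11 had an adjusted p of 0.0869, and became -0.44 with an adjusted p of 0.00169 without that liver. DESeq2 gave it an adjusted p of 0.0411. The strain differences were -0.11 in males (95% interval -0.34 to 0.12) and 0.07 in females (-0.16 to 0.29), and the sex difference in CAST was -0.14 (-0.36 to 0.07).

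Within a liver the ratio of 2 genes does not depend on scaling between libraries, so 3 ratios of FPKM were compared by two-sided exact permutation tests, adjusted over 12 tests. The smallest p that 5 against 5 livers allow is 0.00794. *Cyp7b1* to *Cyp7a1*, the oxysterol hydroxylase of the alternative pathway against the first enzyme of the classical one, had a geometric mean of 5.54 in the males (3.54 to 11.96) and 0.563 in the females (0.402 to 0.872) of B6. In CAST it was 10.1 for males (6.66 to 17.4) and 2.38 for females (0.900 to 5.51). B6 females were the 1 group in which *Cyp7a1* exceeded *Cyp7b1* in every liver. The ratio was 9.84-fold higher in males in B6, 4.23-fold higher in males in CAST and 4.23-fold lower in B6 than CAST females. Each of these 3 had non-overlapping livers and an exact permutation p of 0.00794 (adjusted 0.0238). In males the strains differed 1.82-fold (exact permutation p = 0.0635, adjusted 0.0847).

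*Cyp8b1* to *Cyp7a1* had a geometric mean of 6.47 and 2.93 in males and females of B6 and of 2.11 and 0.962 in those of CAST. The ratio was 3.04-fold higher in B6 than CAST females, with no overlap (exact permutation p = 0.00794, adjusted 0.0238). The other comparisons overlapped and missed the threshold once adjusted: 3.07-fold higher in B6 than CAST males (adjusted exact permutation p = 0.0571), and 2.21-fold and 2.19-fold higher in males in B6 and CAST (adjusted exact permutation p = 0.0680 and 0.0714). *Abcb11* to *Slc10a1*, efflux against uptake, had a geometric mean of 0.669 and 0.705 in males and females of B6 and of 0.612 and 0.540 in those of CAST, and no comparison passed (adjusted exact permutation p of 0.0680 to 0.738).

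**Figure D3:**
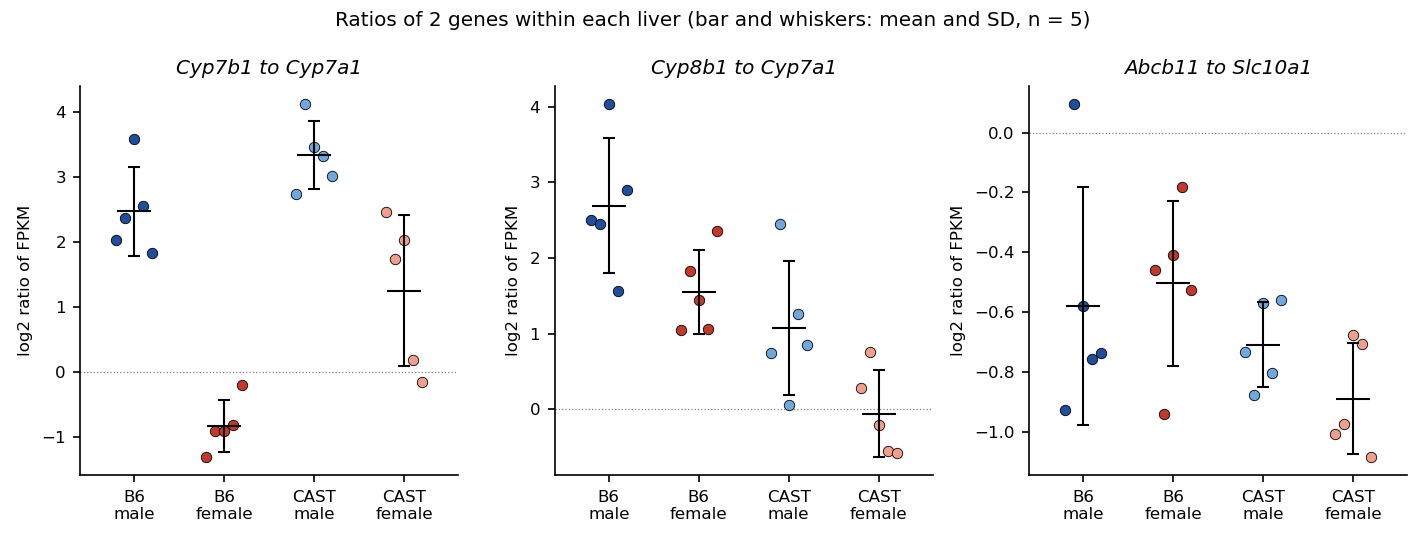
log2 ratio of FPKM of 2 genes within each liver (y axis) by group (x axis). Points are livers, and bars and whiskers are the mean and SD of 5. For *Cyp7b1* to *Cyp7a1* all B6 females lie below 0, and the B6 males lie between 1.82 and 3.58.

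Of 15 other synthesis enzymes, 4 passed the adjusted p between the sexes in B6 (1 higher and 3 lower in males) and 8 in CAST (2 higher and 6 lower), against 7.55% and 5.65% of all genes and 21.3% and 15.3% of well counted ones. *Scp2*, whose products include the peroxisomal thiolase that cuts the side chain after *Acox2*, was counted as a whole gene. It averaged 770 FPKM in B6 males and 313 in B6 females (log2 1.32, adjusted p = 9.47e-09), with a smaller male excess in CAST (0.43). Its interaction was 0.90 (adjusted p = 0.000512). *Acnat2*, an acyltransferase related to *Baat*, averaged 1.99 FPKM in males and 18.1 in females of B6, and 17.2 and 38.6 in those of CAST. It was lower in males by -3.16 in B6 and -1.13 in CAST, with an interaction of -2.02 (adjusted p = 2.72e-06), and lower in B6 by -3.08 in males and -1.06 in females. *Acnat1* and *Akr1d1*, the reductase of the bile acid ring, were called in CAST, both lower in males (-1.01 and -1.12). *Acnat1* lies at the 2-fold line: it was -0.92 with library size alone, -0.94 in limma at a pseudocount of 0.1, just under 2-fold in DESeq2, and -0.94, -0.97 and -0.92 without CAST female 4, CAST female 5 or CAST male 5. *Acnat1* and *Acnat2* are close paralogs, so reads may be split between them with error. *Acaa1b*, a peroxisomal thiolase, was lower in males in CAST (-1.33) but was 0.19 in B6, with an interaction of 1.52 (adjusted p = 0.00276). The CAST call was lost in limma at pseudocounts of 1 and 0.01 (adjusted p = 0.0560 and 0.0750). It was higher in B6 than CAST males by 1.77. *Cyp46a1*, which makes the oxysterol that *Cyp39a1* uses, averaged 0.286 FPKM in males and 0.476 in females of B6 but 3.09 and 8.48 in the same sexes of CAST (log2 -3.43 and -4.25), and was lower in CAST males than females by -1.51. *Akr1c6* was higher in B6 than CAST females by 1.02, and by 0.96 without CAST female 4 or 5. The median log2 over the list was 0.05 for sex in B6 and -0.15 in CAST, beside 0.02 and -0.01 over all genes.

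Of 18 other transporters, 17 were tested in B6 and 18 in CAST. Between the sexes 2 were higher and 5 lower in B6 males, and 1 was higher and 4 lower in CAST males, at the adjusted p, against 7.55% and 5.65% of all genes. No gene of the list that was higher in males was called in either strain. *Slco1a4*, a basolateral organic anion carrier, was lower by -1.37 in B6 (adjusted p = 0.0552 in limma at a pseudocount of 0.01) and -2.0 in CAST. *Abcb1a*, an efflux pump for drugs, was lower by -2.23 and -1.28 at levels of 0.186 to 1.23 FPKM, and in CAST the adjusted p was 0.0546 to 0.0933 in limma at the 3 pseudocounts. *Abcc4*, a basolateral exporter, was lower by -2.28 in CAST at 0.0654 FPKM in males and 0.322 in females, with an interaction of 2.07 (adjusted p = 0.0480) that was lost when any 1 of 16 of the 20 livers was left out, with library size alone (0.0732), with DESeq2 size factors (0.0611), with filterByExpr (0.0538) and in limma (0.146 to 0.385). In limma its sex difference in CAST had an adjusted p of 0.116 to 0.244 at the 3 pseudocounts. Between strains, *Slc10a2*, the ileal and cholangiocyte uptake carrier, averaged 3.43 and 2.22 FPKM in B6 males and females and 0.0819 and 0.128 in CAST, where it rests on 1 to 19 reads per liver (log2 5.45 and 4.0). Of 7 cholangiocyte markers tested between strains, 4 were also higher in B6 males and 2 in B6 females, against 38.4% and 39.9% of all genes, and their part in this difference was not tested. *Slc51b*, a subunit of the basolateral exporter, was lower in B6 by -2.49 in males and -2.52 in females, at 0.368 and 0.529 FPKM in B6. *Slc10a5* was higher in B6 by 1.29 and 1.53. *Abcg8*, which exports sterols into bile, was lower in B6 than CAST males by -1.02 (-0.88 without B6 male 4), and *Abcc3* was higher in B6 females by 1.14. The median log2 of the list was -0.32 for sex in B6 and -0.25 in CAST.

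**Figure D4:**
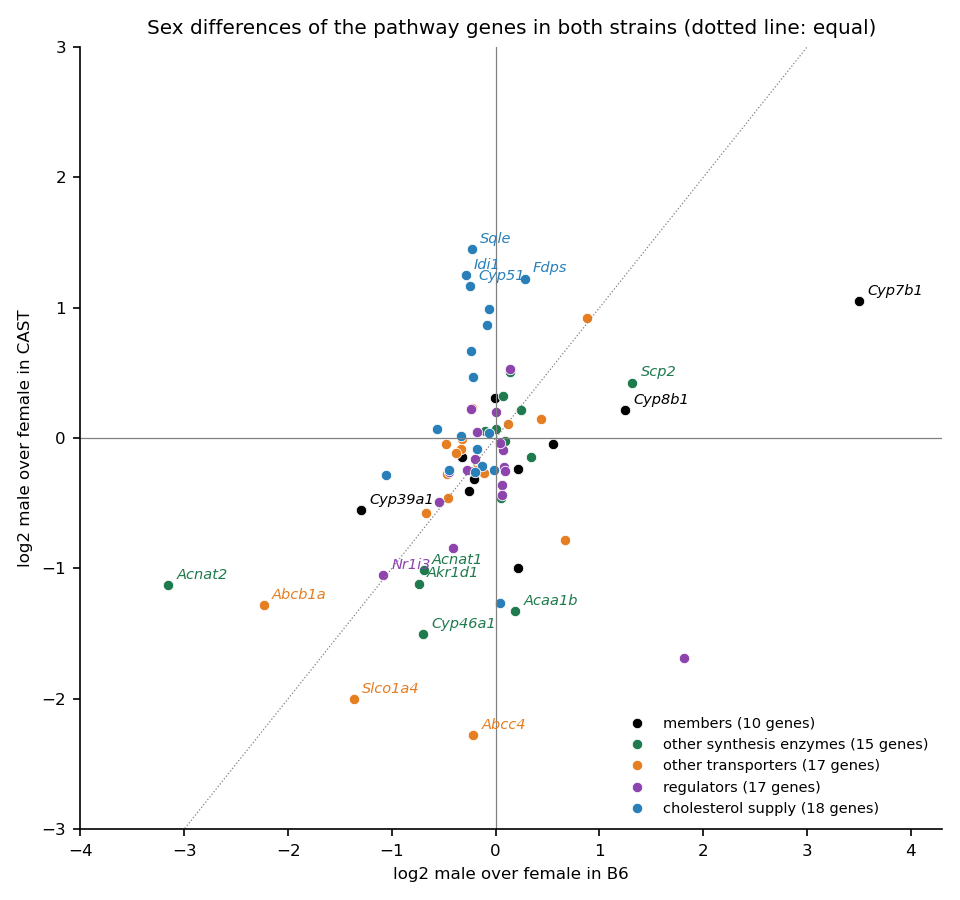
log2 male over female in B6 (x axis) against CAST (y axis) for the 10 members and 4 lists of related genes. Each point is a gene, labelled where it was called in a strain, and the dotted line marks equal differences. *Cyp7b1* (3.50 and 1.05), *Scp2* (1.32 and 0.43) and *Acnat2* (-3.16 and -1.13) lie nearer the B6 axis, and *Idi1*, *Cyp51* and *Sqle* lie along the CAST axis.

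Of 18 regulators of the pathway, 17 were tested. In B6 2 were lower in males at the adjusted p and in CAST 5, with none higher in either strain, against 7.55% and 5.65% of all genes and 21.3% and 15.3% of well counted ones. *Nr1h4*, the bile acid receptor, averaged 22 FPKM in males and 21.2 in females of B6 and 25.9 and 26.3 in those of CAST, and was lower in B6 than CAST females by -0.39 (adjusted p = 0.00358). *Nr0b2* (SHP), the repressor it induces, averaged 14.7, 13.5, 17.8 and 11.9 in the same order and passed in no comparison. *Nr5a2* (LRH-1), an activator of *Cyp7a1* and *Cyp8b1*, averaged 6.70, 8.30, 7.79 and 8.77 and passed in none. *Fgfr4*, the receptor for the gut signal that lowers *Cyp7a1*, averaged 7.67, 8.82, 14.1 and 12.9 and was lower in B6 by -0.85 in males (adjusted p = 5.65e-10) and -0.64 in females. *Klb*, the co-receptor of *Fgfr4*, was lower in males by -0.42 in B6 (adjusted p = 0.0489, above 0.05 when any 1 of 7 of the 10 livers was left out) and -0.85 in CAST. *Nr1i3* (CAR), a xenobiotic receptor, was the regulator called for sex in both strains, lower in males by -1.09 in B6 and -1.05 in CAST, close to the 2-fold line: it was -0.91 without B6 male 2 and -0.98 without B6 male 4, with an adjusted p of 0.0599 in limma at a pseudocount of 0.01, and in CAST -0.96 with library size alone and without CAST male 3, and -0.97 in limma at a pseudocount of 0.1 and without CAST female 4. *Zfp36l1*, an RNA-binding protein that destabilizes *Cyp7a1* transcripts, averaged 26.1 and 36.4 FPKM in B6 males and females and 4.5 and 5.20 in CAST. It was higher in B6 by 2.57 in males (adjusted p = 6.92e-11) and 2.75 in females. Its part in the *Cyp7a1* levels was not tested.

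Cholesterol is the substrate of *Cyp7a1*. Of 18 measured genes of cholesterol synthesis, uptake and efflux, none was higher and 2 were lower in males in B6, while in CAST 6 were higher in males and none lower, beside 7.55% and 5.65% of all genes. In CAST *Idi1* averaged 44.3 FPKM in males and 17.8 in females (log2 1.25, adjusted p = 0.000770), *Cyp51* 14.4 and 6.11 (1.16), *Fdps* 36.1 and 14.7 (1.22) and *Sqle* 17.1 and 5.99 (1.45). In limma the adjusted p was 0.0603 to 0.0991 for *Fdps* and 0.0813 to 0.123 for *Sqle* at the 3 pseudocounts, and without CAST male 5 *Fdps* (0.95) and *Cyp51* (0.97) were under 2-fold. These enzymes act one after another between mevalonate and cholesterol. The median over the list was -0.21 for sex in B6 and 0.05 in CAST, against 0.02 and -0.01 over all genes. The interaction passed for *Idi1* (-1.53, adjusted p = 0.0122), *Cyp51* (-1.40), *Dhcr7* (-1.04) and *Sqle* (-1.67). For *Idi1* limma at a pseudocount of 0.01 gave an adjusted p of 0.0702. *Dhcr7* and *Sqle* had an adjusted p of 0.0411 and 0.0460 that rose above 0.05 in limma at each pseudocount and, for each gene, with any 1 of 14 of the 20 livers left out. Between strains, 12 of 18 were higher and 1 lower in B6 females, and 7 higher and 1 lower in B6 males, at the adjusted p, against 39.9% and 38.4% of all genes and 58% and 53.5% of well counted ones, so the share in males was near the background. *Fdps* was higher in B6 by 2.22 in females and 1.29 in males, and *Insig1*, which restrains synthesis, by 1.35 and 1.26. *Cyp51* and *Idi1* were higher in B6 females by 2.01 and 1.76. *Abca1*, the exporter of cholesterol to lipoproteins, averaged 12.3 and 12.2 FPKM in B6 males and females with at most 5 reads in any CAST liver, and whether this reflects mapping or expression was not tested. CAST females, highest of the groups in mean *Cyp7a1*, were lowest in mean *Idi1*, *Cyp51*, *Fdps* and *Sqle*. Over 20 livers the correlation of *Cyp7a1* deviations from group means was 0.38 with those of *Idi1* and -0.56 with those of *Soat2*, in values that share a library.

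*Cyp7a1* is also under the circadian clock, and per the study's methods the livers were collected in the same window of the morning on several days, with no label saying which livers share a day. Of 15 clock and clock-output genes, 13 differed between strains in females (5 higher and 8 lower in B6) and 9 in males (2 higher and 7 lower), against 39.9% and 38.4% of all genes. *Dbp* averaged 5.51 and 2.68 FPKM in B6 males and females and 15.4 and 22.7 in CAST, and was lower in B6 by -1.44 and -3.18. *Per1*, *Per2* and *Per3* were lower in B6 by -1.16, -1.30 and -1.23 in males and -2.10, -2.13 and -2.60 in females, and *Ciart* by -3.80 and -4.26. *Tef* was lower (-1.15) and *Npas2* higher (2.08) in B6 females, and *Bhlhe41*, at most 0.228 FPKM, was higher in B6 males than CAST males (1.5). *Arntl* was at most 0.0628 FPKM in any CAST liver, where it had at most 10 reads, against 1.72 to 4.76 in B6. Whether this near absence of *Arntl* reflects mapping or expression was not tested. Between the sexes the calls in this list were *Bhlhe41* in B6, higher in males (2.28), and *Per3* in CAST, lower in males (-1.13). The part of clock phase in the strain differences of *Cyp7a1* was not tested.

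**Figure D5:**
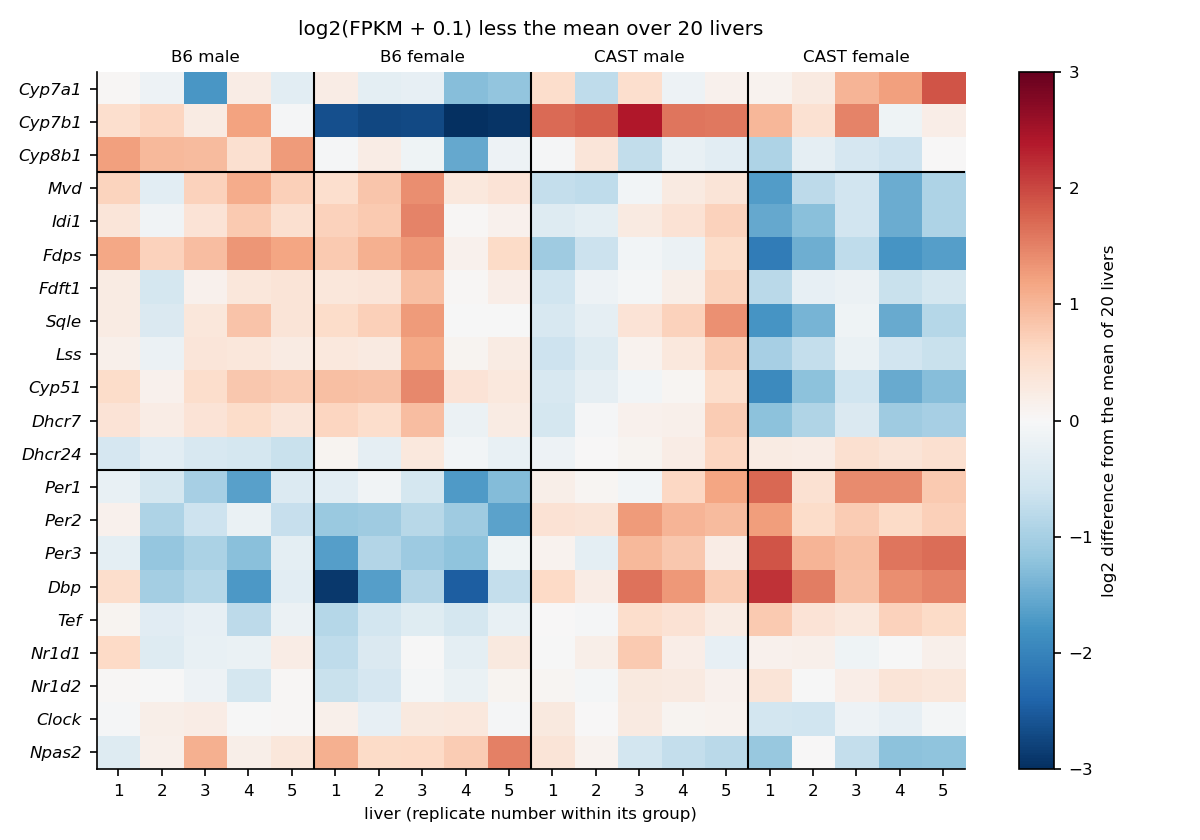
log2(FPKM + 0.1) less its mean over 20 livers (colour, capped at 3 in either direction) for *Cyp7a1*, *Cyp7b1* and *Cyp8b1*, 9 cholesterol synthesis genes and 9 clock genes (rows) in each liver (columns). CAST females are high for *Cyp7a1*, *Per3* and *Dbp* and low for *Idi1*, *Fdps* and *Cyp51*.

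Markers of other cell types and of liver zones moved with some comparisons. At the adjusted p, the share of all genes was 7.55% for sex in B6, 5.65% for sex in CAST, 38.4% for strain in males, 39.9% for strain in females and 2.28% for the interaction, and the counts here are at that threshold. Of 7 Kupffer cell markers, 6 were lower in B6 males than B6 females, with a summed level of 15 to 29 FPKM in males and 35.1 to 41.4 in females, and none was at 0. All 7 were higher in B6 than CAST in both sexes, where the sums were 4.83 to 12.8 in CAST males and 7.77 to 26.2 in CAST females. Of 6 endothelial and 6 stellate cell markers, 3 each were lower in B6 males. *Alas2*, the 1 blood cell marker of 5 above 0, was 26.9 to 36.5 FPKM in B6 males, 2.83 to 5.42 in B6 females and at most 3.25 in CAST (log2 for sex in B6 2.81). Of 8 cholangiocyte markers, 7 were tested between strains, and 4 were higher in B6 males and 2 in B6 females, with none lower, so the count in females was below the share of all genes. Their summed levels were 7.48 to 24.9 FPKM in B6 males, 5.97 to 13.6 in B6 females, 5.66 to 9.89 in CAST males and 5.71 to 9.93 in CAST females. *Krt7* was at 0 in all CAST livers and *Krt19* in all CAST males, and *Sox9* was higher in B6 males than B6 females (1.11). Of 10 pericentral hepatocyte genes, 5 were lower in B6 males than females (sums of 1345 to 2250 against 2196 to 2475 FPKM), *Lgr5* by -1.17. In CAST 1 was higher and 3 were lower in males. Of 10 periportal genes, 1 was higher and 1 lower in B6 males (*Ctsc*, -1.58) and 4 were lower in CAST males. The interaction passed for the periportal *Cyp2f2* (0.66), *Asl* (0.80) and *Ctsc* (-0.80) and the pericentral *Axin2* (-1.47). Between strains the zonation calls were *Oat*, lower in B6 (-1.43 in males and -1.22 in females), *Tbx3*, higher in B6 females (1.01), *Sds* and *Asl*, lower in B6 females (-1.15 and -1.08), and *Gls2* and *Hsd17b13*, higher in B6. *Gls2* was at most 1.96 FPKM in CAST against at least 71.3 in B6, and *Hsd17b13* had at most 4 reads in a CAST liver against at least 44.3 FPKM in B6. Whether the low values of these 2 genes in CAST reflect mapping or expression was not tested. Of 6 pancreas markers, *Cela1* was 3.24 to 8.43 FPKM in B6 and 0.371 to 1.54 in CAST (log2 2.70 in males and 2.51 in females), and the others were at most 0.646 FPKM in any liver. The part of these markers in the member results was not tested.

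Within groups the members did not move as 1 block. The strongest correlations of deviations from group means over 20 livers were *Cyp39a1* with *Baat* (0.70), *Abcb11* with *Slc27a5* (0.68) and *Slc10a1* with *Baat* (0.63), and the most negative was *Cyp7b1* with *Cyp39a1* (-0.39). Among 9062 genes, those most like *Cyp7a1* within groups were *Ccdc92* (0.87), *Rbm18* (0.79) and *Ifih1* (0.75). Those most like *Cyp7b1* were *C8b* (0.89), *Nudt7* (0.89) and *Selenbp2* (0.85), and for *Cyp8b1* *Dclre1a* (0.86), the lncRNA gene *ncRNA_as_chr19_14977* (0.84) and *Atg101* (0.80). These are descriptions over 20 livers that share libraries, chosen as the highest of many.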

How the data were processed

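RNA-seq of 20 mouse livers was analysed from 2 kinds of deposited values. Per the study's methods, the authors mapped 50 nt paired-end reads with TopHat, using mm9 for B6 libraries and a CAST version of it for CAST libraries, kept uniquely mapped reads and assigned them to exons with FeatureCounts. The deposited read counts, 1 table per strain, are whole and not normalized. The FPKM values that the authors deposited are scaled to exon length and library size. Fold changes and p-values in the deposited tables are the authors' own comparison of the sexes and were not used. A further 24 columns hold scaled counts or group medians and were not used.

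Counts were tested with edgeR 4.0.16 in R 4.3.3 (TMM, quasi-likelihood test, genes with at least 1 read, Benjamini-Hochberg over all genes): sex within each strain on 10 livers, and strain and the interaction in 1 fit of 4 groups over 25779 genes, which left out 2028 genes listed for 1 strain with an FPKM above 0 in the other. SE is the log2 difference divided by the square root of the test's F. All 10 members passed this filter. Spread is between mice of a group, and counting error, which falls with depth, is part of it. Ratios used exact permutation tests in scipy 1.17.1. The edgeR test was also run on simulated counts with 200 changed genes, as a check of the code and not of the results here. The named genes are the 10 members, up to 12 called genes per comparison over 4 pathway lists together with the smallest adjusted p (a named gene may be given in its other comparisons too), 5 fixed regulators and called clock and zonation genes. The members and all lists were chosen with earlier results of these data known. *Hmgcs1*, *Tf*, *Adgre1* and *Xist* are not among the listed symbols.

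No collection batch is named in the labels, although per the study's methods collection was spread over several days with all 4 groups on each. The alternatives tried were edgeR's exact test, scaling by library size alone or by the size factors of DESeq2, DESeq2 1.42.0 itself, filterByExpr, the sex contrasts in the fit of 20 livers, limma 3.58.1 on log2(FPKM + 0.1), log2(FPKM + 1) and log2(FPKM + 0.01) or with a mean FPKM of at least 0.1, other thresholds, the replicate number as a block, and each liver left out. The block together with filterByExpr was added after seeing the data. Figures used matplotlib 3.10.9.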

Additional observations from a re-analysis of the deposited data

Results flagged for a closer look

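Of 52 sets of 5 livers, 2 held a value that stood apart from the other 4 livers by Dixon's test, which flags about 1 in 20 groups by chance: the CAST male with 311 FPKM of *Cyp7b1* and the B6 female with 68.6 FPKM of *Abcb11*. Among the members and the 4 lists of related genes, 11 passed in the interaction of edgeR's fit, against 2.28% of all genes and 8.55% of well counted ones. Zonation and blood cell markers that passed as well are not among the 11. The interaction is given here as the log2 sex difference in B6 minus that in CAST. It was 2.46 for *Cyp7b1*, 0.61 for *Acox2* and 0.46 for *Baat* among the members. Among the related genes it was -2.02 for *Acnat2*, 0.90 for *Scp2*, 1.52 for *Acaa1b*, -1.53 for *Idi1*, -1.40 for *Cyp51*, -1.04 for *Dhcr7*, -1.67 for *Sqle* and 2.07 for *Abcc4*. *Abcc4* rests on 6 to 141 reads per liver. For *Baat*, *Dhcr7*, *Sqle* and *Abcc4* the adjusted p rose above 0.05 with some single livers left out.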

How the results depend on the processing

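Counts of members called were 3 for sex in B6, 1 for sex in CAST, 3 in each strain comparison and 3 in the interaction. Of all genes, 2.4% were called for sex in B6 and 2.05% for sex in CAST. The shares were 23.8% and 24.4% for strain in males and females, and 2.28% in the interaction. For sex in CAST the count was 0 in limma at each pseudocount (0.1, 1 and 0.01) and 0 at an adjusted p under 0.01. With no fold threshold the count for sex in CAST was 5, against 5.65% of all genes and 15.3% of well counted ones. It was then 6 for strain in males and 8 for strain in females, against 38.4% and 39.9% of all genes. Of well counted genes, 53.5% and 58% passed in the same comparisons. In the interaction the count was 1 in limma at a pseudocount of 0.01 and 2 in limma at 0.1 and 1. It was also 2 with library size alone and at an adjusted p under 0.01, and 4 in DESeq2. For sex in B6 the count was 2 in limma at a pseudocount of 0.01. With each liver left out the count was 0 to 2 for sex in CAST, 2 to 5 in the interaction and 3 throughout in the others. For sex in CAST it was 0 without CAST female 4 or 5 and 2 without CAST female 1 or CAST male 1 or 5. In the interaction it was 5 without B6 female 2. The ratio of *Cyp7b1* to *Cyp7a1* between male strains passed with 1 FPKM added (log2 -0.88). Leaving out each liver gave -1.14 to -0.66 for it. It gave 0.81 to 1.42 and 0.79 to 1.38 for *Cyp8b1* to *Cyp7a1* between the sexes of B6 and CAST. For *Abcb11* to *Slc10a1* it gave -0.25 to 0.011 for sex in B6, -0.041 to 0.21 for strain in males and 0.31 to 0.49 for strain in females.

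The differences that changed sign were near 0. *Acox2* for sex in CAST was 0.041 with library size alone and 0.0295, 0.0290 and 0.0295 in limma at pseudocounts of 0.1, 1 and 0.01. *Baat* for strain in males was -0.0035 in the block with filterByExpr and -0.013 in limma. The interaction of *Slc10a1* was -0.017 in limma at each pseudocount. With a liver left out, *Cyp27a1* for sex in B6 ranged from -0.057 to 0.038, *Acox2* for sex in CAST from -0.093 to 0.00998, *Baat* for strain in males from -0.067 to 0.058, *Cyp8b1* for strain in females from -0.0053 to 0.35, *Abcb11* for strain in females from -0.00059 to 0.17, *Nr0b2* for strain in females from -0.077 to 0.24 and the interaction of *Nr5a2* from -0.095 to 0.081. The cause of these changes was not tested.

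The replicate numbers 1 to 5 recur in the 4 groups but belong to different mice. Over 10967 genes, deviations of same-numbered livers correlated at -0.068 to 0.31 (mean 0.067) between the B6 sexes, -0.084 to 0.39 (mean 0.16) between the CAST sexes, -0.14 to -0.013 (mean -0.061) between male strains and 0.053 to 0.19 (mean 0.12) between female strains. The means over livers of different number were -0.017, -0.041, 0.016 and -0.030. In the CAST sexes 4 of 5 pairs were above 0.1, and in no comparison were all 5, so the numbers were not taken to pair livers. In the fit that holds this number as a block, members called were 3 for sex in B6, 1 for sex in CAST and 3 for strain in each sex. The interaction had 4, since *Cyp8b1* passed (adjusted p = 0.0163), and 3 with filterByExpr added. At the adjusted p alone *Abcb11* (-0.31) and *Slc27a5* (-0.26) passed for sex in B6, *Nr5a2* for sex in B6 (-0.29, adjusted p = 0.0393) and CAST (-0.25, adjusted p = 0.0356), and *Nr0b2* (0.44, adjusted p = 3.62e-05) and *Cyp27a1* (0.31) for sex in CAST. With filterByExpr added to the block, only *Cyp27a1* of these passed (adjusted p = 0.0158), the others had an adjusted p of 0.116 to 0.201, and *Cyp39a1* for sex in CAST (adjusted p = 0.0856) and *Klb* for sex in B6 (0.0918) no longer passed. For sex in B6 and CAST the block gave 11 and 9 other transporters, 5 and 8 regulators and 4 and 11 cholesterol genes, against 11.2% and 11.1% of all genes. With the filter these were 7 and 5, 2 and 4, and 2 and 6, against 12.2% and 13.8% of the genes kept. Spread between 5 livers limits the smaller differences, and *Cyp39a1* reaches down to 284 reads in a liver.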
